A study of Homo sapiens with 12 samples.

Results

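The doxycycline response of a TAL1 line was set against the doxycycline response of an LMO1 line, gene by gene, in 8 of the 12 RNA-seq libraries of the study. Both lines derive from HPB-ALL, an established human T-cell acute lymphoblastic leukaemia (T-ALL) line, and were made by infection with lentiviruses for inducible overexpression followed by drug selection. The 4 groups were the TAL1 line with DMSO (the vehicle) or with doxycycline (the inducer) and the LMO1 line with DMSO or with doxycycline, with 2 libraries per group. All 4 groups therefore carried a lentiviral construct and had been drug selected, and medium with tetracycline-free serum was common to them. The sources used here do not give the dose or duration of doxycycline, the promoter of the constructs or whether each line is 1 clone. Every library came from cells with a transgene, so an effect of doxycycline itself cannot be told apart from a response that both transgenes share. The other 4 libraries belong to a line with both transgenes (TAL1/LMO1) and enter only where that line is named. Nothing in the sources says that the 2 libraries of a group were separate cultures, so the p-values reflect no more than the spread among these libraries, which may be technical.

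TAL1, a DNA-binding factor of the basic helix-loop-helix class, is normally silent in thymocytes past their earliest stages and is switched on aberrantly in many T-ALLs. It pairs with E proteins (TCF3, TCF12), which bind E-box sequences in DNA and drive thymocyte genes such as the CD1 and pre-T-cell receptor genes, and the pairing can divert E proteins from those genes. LMO1 binds no DNA. It is a LIM-only bridging protein that joins TAL1, LDB1 and GATA factors in 1 complex, and it too is an oncogene of T-ALL. The question that the comparison addresses is which genes each factor moves differently, or in opposite directions, when the other is not induced.

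Library totals lay between 15454906 and 15917713 counts, and 15359 of the 63677 genes in the table were tested. Levels are in CPM, the usual count unit relative to the scaled library size, and a difference of responses is the log2 change in the TAL1 line minus the log2 change in the LMO1 line. All sums of cell-type markers, and the levels of single markers in this paragraph other than CD7, are relative to the unscaled library total. A gene is said to be called, to rise or to fall where the Benjamini-Hochberg adjusted p of edgeR's quasi-likelihood test was under 0.05. The T-lineage markers summed to 2219 to 2392 CPM over the 8 libraries, with CD3D, CD3E and CD3G high in all of them. CD7, another T-lineage marker, was at 289 to 309.7 CPM in the TAL1 line and at 2.57 to 5.02 CPM in the LMO1 line. CD2, also a T-lineage marker, was low in both, at 6.73 to 7.70 CPM in the TAL1 line and 0.317 to 0.880 CPM in the LMO1 line. Markers of B, myeloid and erythroid cells summed to at most 6.49, 1.52 and 0.759 CPM in any library. Of 5 fibroblast and epithelial markers 4 were below 1 CPM in all 8 libraries, and VIM, which leukocytes also express, was at 349 to 366 CPM in the TAL1 line and at 1.01 to 2.16 CPM in the LMO1 line. With DMSO alone, 6098 genes (39.7%) differed between the lines, so the responses start from different levels for many genes. The RNA is from bulk cultures, in which fewer cells of a kind and less RNA per cell cannot be told apart.

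Each transgene was induced in its own line. TAL1 was at 3.97 and 3.80 CPM with DMSO and 34.7 and 42.1 CPM with doxycycline in the TAL1 line, and LMO1 was at 3.85 and 1.72 CPM with DMSO and 234 and 207 CPM with doxycycline in the LMO1 line. In the LMO1 line TAL1 stayed at or below 0.257 CPM, and in the TAL1 line LMO1 stayed at or below 0.317 CPM. The log2 changes were 3.30 (SE 0.14, adjusted p = 8.4e-40) for TAL1 and 6.31 (SE 0.16, adjusted p = 5.9e-17) for LMO1 in their own lines. The difference of responses for LMO1 was -6.57 (SE 1.48, adjusted p = 0.029). It lost its call when DMSO replicate 2 of the TAL1 line was omitted (adjusted p = 0.829) and with all 12 libraries in the model (adjusted p = 0.889). The difference for TAL1 was not called (adjusted p = 0.23), and the opposite line had only a few counts of either transgene. Replicate 1 of the TAL1 line with doxycycline held counts of genes that are otherwise high only in the LMO1 line or the TAL1/LMO1 line. The median excess over 11 such genes was 1.34% of their level in the LMO1 line, against 0.242% in replicate 2. For RAG1, CFTR, ANXA1 and PTPRF values are also given after a share of the LMO1 profile was subtracted.

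The log2 changes of the lines were nearly uncorrelated. Over the 15359 tested genes the Pearson correlation of their log2 changes was 0.06, and over the 715 genes called in either line it was -0.03. Both values weigh every gene alike, with genes of few counts and the transgenes included (713 of the 715 are not transgenes). Genes are not independent replicates, and the lines share no library. Doxycycline moved 365 genes (2.38%) in the TAL1 line, of which 190 rose (1.24%) and 175 fell (1.14%). It moved 417 genes in the LMO1 line (2.72%), of which 223 rose (1.45%) and 194 fell (1.26%). Scaling to total counts in place of TMM changed these splits to 258 risen and 91 fallen, and to 268 risen and 156 fallen. Among the genes called in both lines, 46 (0.299%) moved in the same direction and 21 (0.137%) in opposite directions. These counts depend on single libraries. In the TAL1 line 137 genes were called without its DMSO replicate 1, 124 without its DMSO replicate 2 and 204 without its doxycycline replicate 1. In the LMO1 line 175 and 183 genes were called without doxycycline replicate 1 and 2. In these 5 fits, in that order, the genes called in both lines numbered 9, 11, 25, 22 and 14 in the same direction and 7, 9, 9, 11 and 13 in opposite directions.

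**Figure D1:**
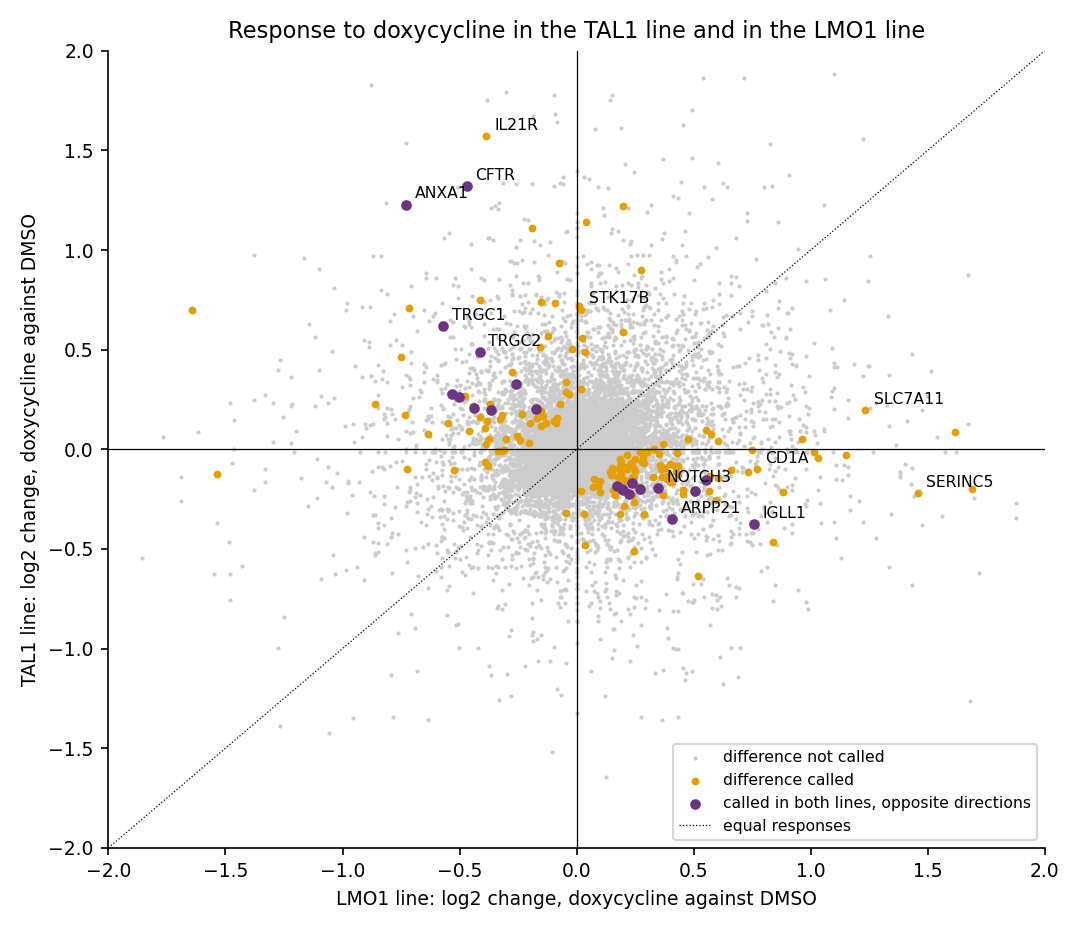
Log2 change with doxycycline against DMSO in the LMO1 line (horizontal axis) and in the TAL1 line (vertical axis) for each tested gene, 2 libraries per group, without the transgenes and without 93 genes beyond 2 on either axis, 7 of them called in the difference. Grey points are genes whose difference was not called, orange points the called ones, and purple points the 21 genes called in both lines in opposite directions, which lie at the upper left and lower right.

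The difference of responses itself was called for 187 genes (1.22%; 1207 genes had an unadjusted p under 0.05). Of these, 79 (0.514%) had the higher response in the TAL1 line and 108 (0.703%) the lower. Most differences were modest: their median size was 0.49 on the log2 scale (quartiles 0.32 and 0.75), 90 reached 0.5 and 33 reached 1. The largest class, 102 genes, was called in the LMO1 line only, and 44 genes were called in the TAL1 line only. Another 19 genes were called in neither line alone, 21 in both lines in opposite directions and 1, TOX2, in both lines in the same direction. Without doxycycline replicate 1 or 2 of the LMO1 line 120 and 122 differences were called. The log2 changes had opposite signs for 157 of the 187, a share that selection on a difference favours.

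All 21 genes that moved in opposite directions were called in the difference, and their libraries did not overlap between treatments in either line. Selection for calls in both lines with opposite signs favours both traits, so neither adds support. Over all tested genes non-overlap held for 42.5% in the TAL1 line, 42.0% in the LMO1 line and 19.2% in both. In the TAL1 line 11 of them fell and in the LMO1 line those 11 rose: IGLL1, ARPP21, NOTCH3, MYO7B, ATF5, HIVEP3, PCBP3, DAB2IP, SLC29A1, EIF4EBP1 and PHGDH. The other 10 rose in the TAL1 line and fell in the LMO1 line, among them TRGC2, TRGC1, TRGV3, JARID2, RGPD3, TLR5, IKZF2, CFTR and ANXA1. Signs were opposite for all 21 in each of the 17 other settings tried, the 8 fits with 1 library left out included. Those settings reuse the counts from which the genes were picked for opposite signs, so this outcome was largely built in. The calls in both lines were more fragile than the signs. In all 8 fits with 1 library left out only TRGC2, IGLL1 and ARPP21 kept them.

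IGLL1 encodes an immunoglobulin lambda-like chain of the pre-B-cell receptor and is an E-protein target. Its levels (ENSG00000128322) in the TAL1 line were 305 and 305 CPM with DMSO and 226 and 243 CPM with doxycycline. In the LMO1 line they were 109.5 and 117 CPM with DMSO and 179 and 204 CPM with doxycycline. With DMSO the TAL1 line was thus the higher, and with doxycycline the lines had drawn closer, without overlap between treatments in either line. The log2 change was -0.38 (SE 0.05, adjusted p = 8.4e-09) in the TAL1 line. In the LMO1 line it was 0.76 (SE 0.05, adjusted p = 3.4e-21), a 1.69-fold rise. The difference of responses was -1.13 (SE 0.07, adjusted p = 5.6e-24), the smallest p of the comparison, and lay between -1.22 and -1.04 in the fits with 1 library left out.

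ARPP21, an RNA-binding phosphoprotein of immature thymocytes and neurons, was at 52.9 and 55.6 CPM with DMSO and 42.8 and 42.3 CPM with doxycycline in the TAL1 line. Its levels in the LMO1 line were 43.03 and 48.5 CPM with DMSO and 59.1 and 62.5 CPM with doxycycline. The lines started at like levels and parted, with log2 changes of -0.35 (SE 0.07, adjusted p = 3.8e-04) and 0.41 (SE 0.07, adjusted p = 4.0e-06). The ARPP21 difference was -0.76 (SE 0.10, adjusted p = 2.5e-09).

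Since TAL1 and E proteins bind E-boxes, the 250 bases before the RefSeq start of the opposite genes were searched for the general E-box CANNTG. The sequence is of GRCh38.p14, while the counts were made on hg19, and the motif reads the same on both strands. Only the 20 opposite genes named here were searched, and 14 of them had an entry. The windows of IGLL1 (chr22:23580291-23580540, minus strand) and ARPP21 (chr3:35639275-35639524, plus strand), the genes of this search that kept both calls in every fit, and of TLR5 (chr1:223143249-223143498, minus strand), a gene of the other direction, are shown 5′ to 3′ with each E-box in capitals.
IGLL1: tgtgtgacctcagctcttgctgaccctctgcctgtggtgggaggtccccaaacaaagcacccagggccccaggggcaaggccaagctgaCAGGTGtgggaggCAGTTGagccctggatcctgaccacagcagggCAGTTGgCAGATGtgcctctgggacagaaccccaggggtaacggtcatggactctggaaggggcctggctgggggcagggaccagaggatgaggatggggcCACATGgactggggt
ARPP21: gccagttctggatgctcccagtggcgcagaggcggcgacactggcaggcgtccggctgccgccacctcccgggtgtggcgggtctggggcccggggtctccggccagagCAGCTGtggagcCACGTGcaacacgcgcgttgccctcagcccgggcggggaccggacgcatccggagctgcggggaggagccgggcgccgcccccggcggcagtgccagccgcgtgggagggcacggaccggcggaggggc
TLR5: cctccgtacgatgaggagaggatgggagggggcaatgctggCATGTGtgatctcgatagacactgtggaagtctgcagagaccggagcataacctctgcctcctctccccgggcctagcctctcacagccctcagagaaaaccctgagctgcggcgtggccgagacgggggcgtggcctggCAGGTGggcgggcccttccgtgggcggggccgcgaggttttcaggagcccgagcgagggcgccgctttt
IGLL1 had 5 E-boxes, among them a CAGGTG and a CAGATG, ARPP21 had 2 and TLR5 had 2. A CANNTG was present in 7 of the 9 genes that fell with TAL1 and in 4 of the 5 that rose, against 62.2% of all 27305 promoters of that length. Of its narrower forms, CAGCTG was in 4 of 9 and 0 of 5 (13.82% of all promoters), CAGGTG or its reverse CACCTG in 3 of 9 and 1 of 5 (17.51%), and CAGATG or CATCTG in 2 of 9 and 1 of 5 (12.24%). A match is a description of these letters and not a bound site.

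NOTCH3, a NOTCH receptor that is itself a target of NOTCH signalling in T-ALL, was at 421 and 409 CPM with DMSO and 364 and 359.6 CPM with doxycycline in the TAL1 line. The LMO1 line had 577 and 575 CPM with DMSO and 735 and 732 CPM with doxycycline. Replicates lay close together in every group, and small changes were called, -0.20 (SE 0.04, adjusted p = 0.003) with TAL1 and 0.35 (SE 0.04, adjusted p = 4.3e-10) with LMO1. The NOTCH3 difference was -0.54 (SE 0.06, adjusted p = 2.1e-11). MYO7B, an unconventional myosin, was at 284 and 304 CPM with DMSO and 243 and 266 CPM with doxycycline in the TAL1 line. MYO7B in the LMO1 line was far lower, at 22.6 and 24.5 CPM with DMSO and 32.3 and 34.6 CPM with doxycycline. Its difference was -0.71 (SE 0.09, adjusted p = 5.6e-09). SLC29A1, the equilibrative nucleoside transporter, was at 916 and 919 CPM with DMSO and 821 and 815 CPM with doxycycline in the TAL1 line. SLC29A1 in the LMO1 line was at 988 and 998 CPM with DMSO and 1177 and 1162 CPM with doxycycline. For SLC29A1 the difference was -0.40 (SE 0.06, adjusted p = 3.1e-07). HIVEP3, a zinc-finger DNA-binding protein, PCBP3, a poly(C)-binding protein, and DAB2IP, a Ras GTPase-activating protein, had differences of -0.47, -0.45 and -0.40 (adjusted p = 1.6e-04, 1.0e-05 and 9.4e-06), with no single change larger than 0.27 in size.

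IGLL1 and NOTCH3 belong to a list of E-protein targets in thymocytes, and ARPP21 to a list of cortical thymocyte genes, the stage at which CD1 and both CD4 and CD8 are expressed. Of 20 tested E-protein targets, 10 rose and none fell in the LMO1 line, and 1 rose (SOCS1) and 2 fell (IGLL1 and NOTCH3) in the TAL1 line. The difference was called for 9, all with the lower response in the TAL1 line. Over all tested genes 1.45% rose and 1.26% fell in the LMO1 line, 1.24% rose and 1.14% fell in the TAL1 line, and 0.703% had a called lower response in the TAL1 line. All gene lists used here were chosen with earlier results of these data known. Their contrast with the shares over all tested genes may therefore be partly built in. The differences were negative for 17 of the 20, and their median was -0.16, against 0.00 over all tested genes. Of 17 cortical thymocyte genes, 7 rose in the LMO1 line, 1 (ARPP21) fell in the TAL1 line and 7 were called in the difference, all negative, with a median of -0.32. Of these 7 genes 6 are on both lists. Over the fits with 1 library left out, 7 to 10 E-protein targets and 5 to 7 cortical genes had a called negative difference. Without replicate 2 of the TAL1 line with doxycycline, RAG1 and RAG2, which are on both lists, also had a called positive one, with replicate 1 and its excess of genes high in other lines as the remaining doxycycline library. The summed cortical markers were 2993 to 3113 CPM with DMSO and 3017 to 3063 CPM with doxycycline in the TAL1 line. In the LMO1 line they were 5541 to 5687 CPM and 6266 to 6654 CPM.

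CD1A, a lipid-presenting surface protein and the usual marker of cortical thymocytes, was at 40.6 and 40.4 CPM with DMSO and 38.1 and 37.5 CPM with doxycycline in the TAL1 line. Its levels in the LMO1 line were 56.6 and 52.9 CPM with DMSO and 96.8 and 89.98 CPM with doxycycline, a 1.71-fold rise. Both doxycycline libraries of the LMO1 line thus lay above all other libraries, and the difference was -0.87 (SE 0.10, adjusted p = 7.3e-12). Its neighbours in the CD1 family, of which CD1C, CD1D and CD1E were chosen after their values were seen, rose in the LMO1 line too: CD1B by 0.24, CD1C by 0.58, CD1D by 0.57 and CD1E by 0.28 on the log2 scale (adjusted p at most 1.9e-05). In the TAL1 line their changes ran from -0.13 to 0.12 and none was called. The difference was called for CD1B (-0.33), CD1D (-0.70) and CD1E (-0.32, adjusted p = 0.0878 without replicate 2 of the LMO1 line with doxycycline), and not for CD1C (-0.46, adjusted p = 0.06).

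DNTT, the terminal transferase that adds bases at antigen-receptor joints, was at 166 and 168 CPM with DMSO and 157 and 156 CPM with doxycycline in the TAL1 line. The LMO1 line had DNTT at 65.3 and 58.03 CPM with DMSO and 82.3 and 78.2 CPM with doxycycline. The DNTT responses differed by -0.48 (SE 0.08, adjusted p = 7.9e-06). IL7R, the interleukin-7 receptor chain and a NOTCH target, was at 352 and 357 CPM with DMSO and 327 and 323 CPM with doxycycline in the TAL1 line. IL7R in the LMO1 line was at 101 and 92.7 CPM with DMSO and 128 and 133 CPM with doxycycline. For IL7R the difference was -0.56 (SE 0.07, adjusted p = 1.5e-09). For both genes the LMO1 line rose without overlap and the TAL1 line was lower with doxycycline by less than the test could call (adjusted p = 0.41 and 0.14). GFI1, a transcriptional repressor of thymocytes chosen after its values were seen, had a difference of -0.37 (SE 0.08, adjusted p = 0.0018). PTCRA, the pre-T-cell receptor alpha chain, passed narrowly (-0.51, SE 0.14, adjusted p = 0.042) and kept its call in 2 of 8 fits with 1 library left out. The highest adjusted p, 0.394, came without replicate 2 of the TAL1 line with doxycycline.

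Not all genes of this stage moved. CD4, CD8A and CD8B, chosen after their values were seen, had differences of -0.11, 0.01 and 0.02 (adjusted p at least 0.78). RAG1, a subunit of the recombinase, was at 1046 and 1049.6 CPM with DMSO and 1037 and 1069.7 CPM with doxycycline in the LMO1 line. RAG1 in the TAL1 line was at 14.01 and 12.5 CPM with DMSO and 23.9 and 14.2 CPM with doxycycline, where the library at 23.9 CPM is the one with the excess of genes high in other lines. Its difference was 0.51 and not called (adjusted p = 0.82), and it was -0.11 after subtraction from that library. The E proteins and their ID inhibitors, 6 tested genes, had no called difference, though all 6 were negative. ID1, an inhibitor of E proteins chosen after its values were seen, fell in the TAL1 line from 22.3 and 22.4 to 14.5 and 14.7 CPM (-0.62, SE 0.10, adjusted p = 3.7e-06), and its difference was not called (adjusted p = 0.13). Of 14 NOTCH targets 3 were called, all negative (IL7R, NOTCH3 and PTCRA), against 0.703% of all tested genes. NOTCH3 and PTCRA are also on the list of E-protein targets. By DESeq2, and with all 12 libraries in the model, 2 of the 14 were called. Differences were negative for 13 of the 14, with a median of -0.18, and for 7603 of all 15359 tested genes. HES1, a direct NOTCH target, had a difference of -0.05 (adjusted p = 0.95).

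**Figure D2:**
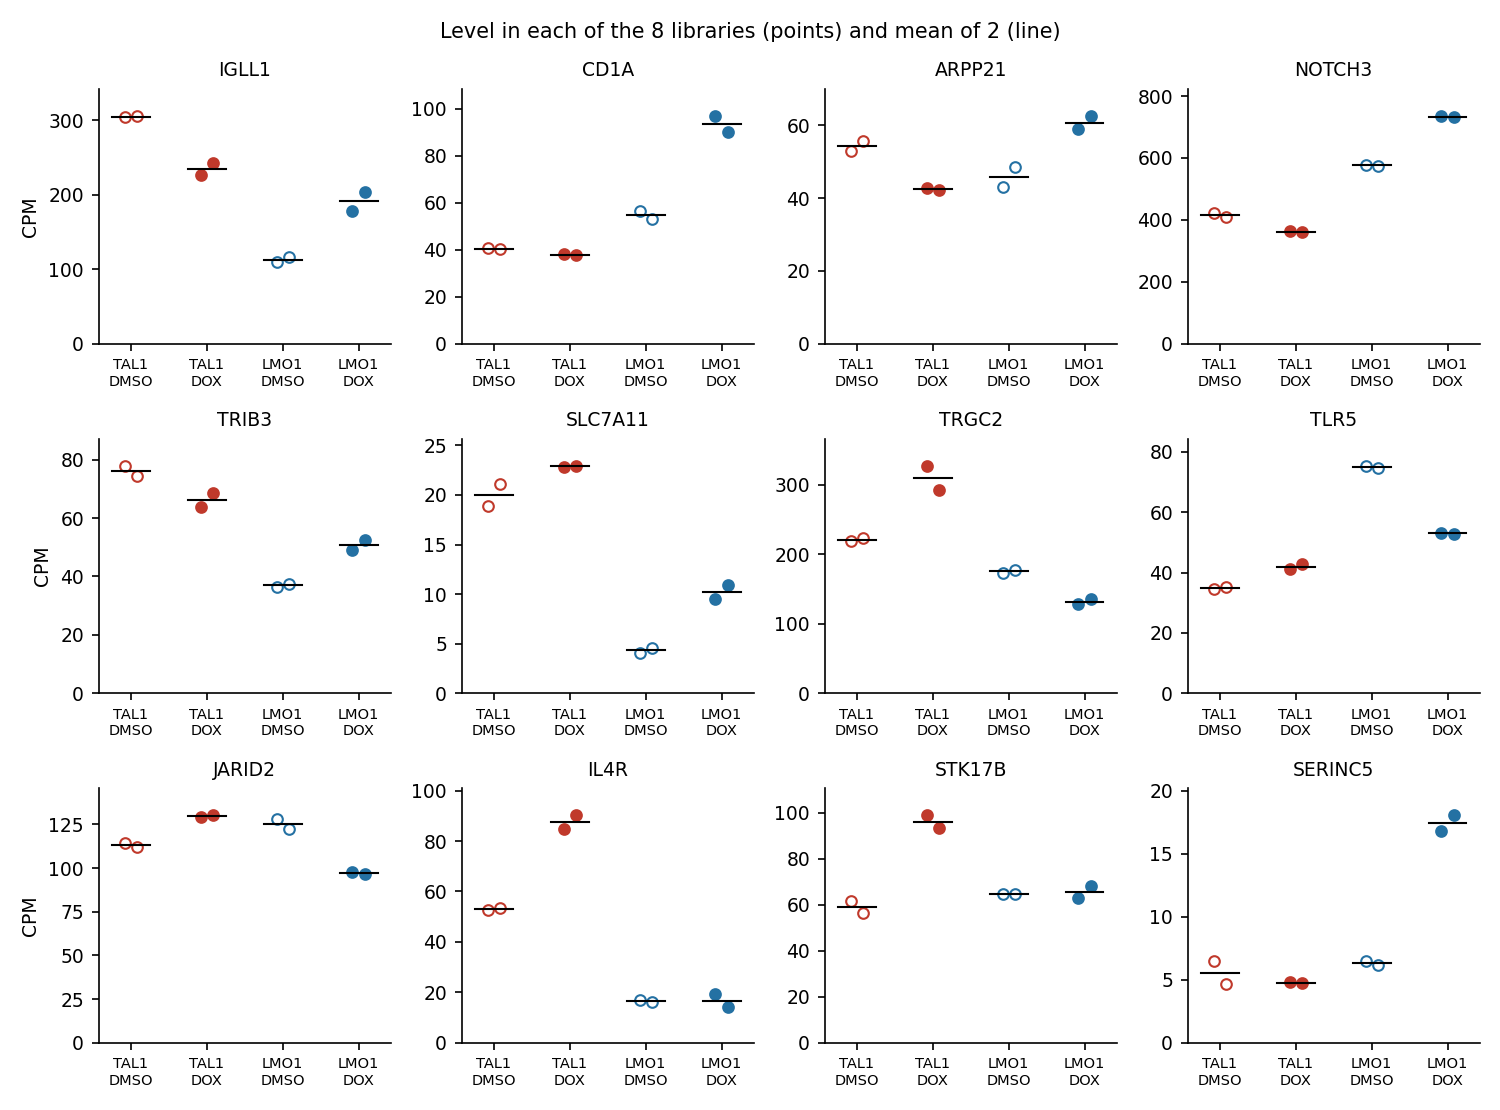
Level in CPM (vertical axes from 0) of 12 genes in each of the 8 libraries, DMSO as open and doxycycline as filled points, TAL1 line red and LMO1 line blue, with the mean of 2 as a line. IGLL1, ARPP21 and NOTCH3 fall in the TAL1 line and rise in the LMO1 line, TRGC2, TLR5 and JARID2 do the reverse, and CD1A, IL4R, STK17B and SERINC5 move in 1 line.

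Genes of the amino acid response, which the transcription factor ATF4 drives when amino acids run short, formed another group with the lower response in the TAL1 line. In the LMO1 line 11 of the 21 tested members rose and none fell. In the TAL1 line 2 fell (PHGDH and ATF4) and none rose. The difference was called for 10, all negative. The background shares were 1.45% risen in the LMO1 line, 1.14% fallen in the TAL1 line and 0.703% with a called negative difference. This list too was chosen with earlier results of these data known. The differences were negative for 19 of the 21, with a median of -0.27. The count of 10 lay between 7 and 10 in the fits with 1 library left out. Without DMSO replicate 1 of the LMO1 line 1 member, DDIT4, had a called positive difference and a called fall in the LMO1 line. The 2 falls in the TAL1 line numbered 0 without either of its DMSO replicates, without its doxycycline replicate 1 or with scaling to total counts. The 11 rises in the LMO1 line fell to 4 without its doxycycline replicate 1, to 5 without its DMSO replicate 2 and to 7 without its DMSO replicate 1.

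ATF5, a transcription factor related to ATF4 and called in both lines in opposite directions, was at 963 and 908 CPM with DMSO and 839 and 839 CPM with doxycycline in the TAL1 line. ATF5 in the LMO1 line was at 215 and 251 CPM with DMSO and 348 and 337 CPM with doxycycline. The change in the LMO1 line was 0.55 (SE 0.05, adjusted p = 5.0e-14), while that in the TAL1 line only just passed (-0.16, SE 0.05, adjusted p = 0.046), and the difference was -0.71 (SE 0.07, adjusted p = 2.1e-12). TRIB3, a pseudokinase that ATF4 induces, was at 77.9 and 74.6 CPM with DMSO and 63.7 and 68.8 CPM with doxycycline in the TAL1 line. The LMO1 line had TRIB3 at 36.6 and 37.6 CPM with DMSO and 49.2 and 52.5 CPM with doxycycline. For TRIB3 the difference was -0.66 (SE 0.09, adjusted p = 9.6e-08). PHGDH, which opens serine synthesis, and EIF4EBP1, a repressor of cap-dependent translation, had small opposite changes and differences of -0.35 and -0.39 (adjusted p = 4.2e-04 and 3.1e-04).

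Several amino acid transporters rose in the LMO1 line. SLC7A11, the cystine transporter, was at 4.10 and 4.59 CPM with DMSO and 9.53 and 10.9 CPM with doxycycline in that line, a 2.35-fold rise. SLC7A11 in the TAL1 line was at 18.9 and 21.1 CPM with DMSO and 22.8 and 22.9 CPM with doxycycline, and the difference was -1.04 (SE 0.18, adjusted p = 2.5e-05). SLC7A5, which carries large neutral amino acids, was at 689 and 680.3 CPM with DMSO and 886 and 869 CPM with doxycycline in the LMO1 line, and its difference was -0.46 (SE 0.06, adjusted p = 7.3e-09). SLC6A9, a glycine transporter, SLC3A2, the partner chain of SLC7A5, and SLC1A5, a glutamine transporter, were chosen after their values were seen and had differences of -0.91, -0.32 and -0.30 (adjusted p = 4.5e-08, 7.8e-04 and 7.9e-04). SESN2, a stress-induced brake on mTORC1, and ATF3, chosen after its values were seen, had differences of -0.51 and -0.77 (adjusted p = 3.1e-04 and 7.0e-04). The ATF3 call was lost by DESeq2 (adjusted p = 0.0629). ATF4 mRNA itself, DDIT3 and ASNS, also chosen after their values were seen, had no called difference (-0.13, -0.08 and 0.03, adjusted p at least 0.57). ATF4 fell in the TAL1 line by 0.16 on the log2 scale (adjusted p = 0.015). The RNA measures neither ATF4 protein nor its activity.

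**Figure D3:**
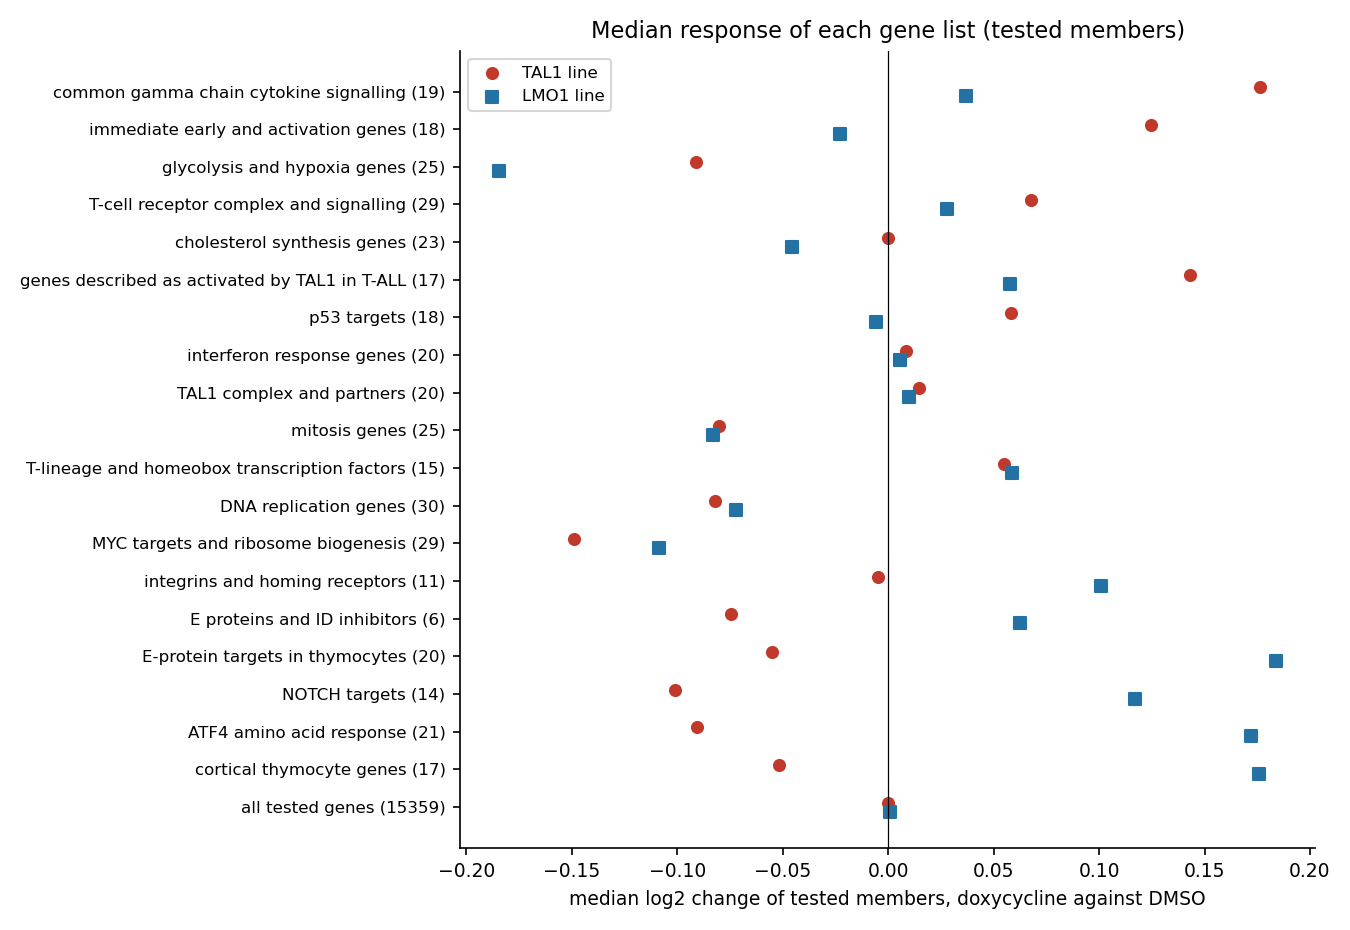
Median log2 change with doxycycline against DMSO over the tested members of each gene list (their number in brackets), TAL1 line as red circles and LMO1 line as blue squares, ordered by the median difference. The lists of GIMAP GTPases and of natural killer and cytotoxic genes, with 4 and 2 tested members, are not drawn. Cortical thymocyte genes, the amino acid response, NOTCH targets and E-protein targets lie left of 0 in the TAL1 line and right of 0 in the LMO1 line, while MYC targets, mitosis and replication genes lie left of 0 in both.

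Of the genes that rose with TAL1 and fell with LMO1, 3 belong to the T-cell receptor gamma locus. TRGC2, a constant-region gene of the locus (ENSG00000227191), was at 219 and 223 CPM with DMSO and 327 and 292 CPM with doxycycline in the TAL1 line. Its levels in the LMO1 line were 173 and 178 CPM with DMSO and 129 and 135 CPM with doxycycline. The doxycycline libraries lay above the DMSO libraries in the TAL1 line and below them in the LMO1 line, with changes of 0.49 (SE 0.05, adjusted p = 1.5e-14) and -0.41 (SE 0.05, adjusted p = 5.3e-10). The TRGC2 difference was 0.90 (SE 0.07, adjusted p = 4.2e-20). TRGC1, the other constant-region gene, had 15.1 and 17.999 CPM with DMSO and 27.95 and 22.9 CPM with doxycycline in the TAL1 line. TRGC1 in the LMO1 line was at 13.2 and 13.2 CPM with DMSO and 8.83 and 8.95 CPM with doxycycline. The TRGC1 responses differed by 1.19 (SE 0.16, adjusted p = 1.2e-08). TRGC1 and TRGC2 are near-identical copies, so the split of reads between them is uncertain. TRGV3, a variable segment, had 72.2 and 74.7 CPM with DMSO and 85.8 and 92.2 CPM with doxycycline in the TAL1 line. TRGV3 in the LMO1 line was at 63.6 and 60.3 CPM with DMSO and 44.5 and 41.2 CPM with doxycycline. For TRGV3 the difference was 0.81 (SE 0.09, adjusted p = 7.5e-12). TRGV2, chosen after its values were seen, had the same signs at 1.40 to 3.42 CPM without a called change.

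JARID2, a DNA-binding cofactor of Polycomb repressive complex 2, was at 114 and 112 CPM with DMSO and 129 and 130.2 CPM with doxycycline in the TAL1 line. JARID2 in the LMO1 line was at 128 and 122 CPM with DMSO and 97.99 and 96.6 CPM with doxycycline. For JARID2 the difference was 0.56 (SE 0.07, adjusted p = 1.1e-08). TLR5, the receptor for bacterial flagellin, whose promoter is shown above, was at 34.7 and 35.2 CPM with DMSO and 41.1 and 42.9 CPM with doxycycline in the TAL1 line. TLR5 in the LMO1 line was at 75.4 and 74.7 CPM with DMSO and 53.02 and 52.9 CPM with doxycycline. The TLR5 responses differed by 0.77 (SE 0.10, adjusted p = 1.7e-09). Neither gene overlapped between treatments in either line, which held for all 21 opposite genes and which their selection favours. By DESeq2 the rises of JARID2 and TLR5 in the TAL1 line were not called (adjusted p = 0.088 and 0.147). The lines' starting levels differed more for TLR5.

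RGPD3, of a family of near-identical RANBP2-like copies whose reads are hard to assign, had a difference of 0.65 (SE 0.07, adjusted p = 3.5e-12). RGPD1 of the same family, chosen after its values were seen, had one of 0.68 (SE 0.13, adjusted p = 2.3e-04). IKZF2, the lymphoid transcription factor Helios, had a difference of 0.37 (SE 0.07, adjusted p = 0.0013). That call was lost without replicate 1 of the LMO1 line with doxycycline (adjusted p = 0.0801), by DESeq2 (adjusted p = 0.29) or with all 12 libraries in the model (adjusted p = 0.163). CFTR, a chloride channel, was at 6.65 and 5.96 CPM with DMSO and 19.1 and 12.5 CPM with doxycycline in the TAL1 line. The LMO1 line had CFTR at 791 and 756 CPM with DMSO and 539.7 and 577 CPM with doxycycline. Of its doxycycline libraries in the TAL1 line the one with 19.1 CPM is replicate 1, which carries the excess of genes high in other lines. Its difference was 1.79 (SE 0.20, adjusted p = 1.5e-04), and 1.45 without that library. After subtraction of the excess from replicate 1 the CFTR difference was 1.247 and its change in the TAL1 line 0.78. After subtraction from both replicates these were 1.121 and 0.65, and the changes stayed called. The fall of CFTR in the LMO1 line, however, was not called by DESeq2 (adjusted p = 0.298). ANXA1, a phospholipid-binding protein induced by glucocorticoids, had 0.576 and 0.761 CPM with DMSO and 1.66 and 1.49 CPM with doxycycline in the TAL1 line. ANXA1 in the LMO1 line was at 19.1 and 20.4 CPM with DMSO and 11.2 and 12.6 CPM with doxycycline. The ANXA1 responses differed by 1.95 (SE 0.38, adjusted p = 2.3e-04). Its rise in the TAL1 line, 1.23 (SE 0.37, adjusted p = 0.043), was of like size after the excess was subtracted from replicate 1 (1.116, adjusted p = 0.089). That call was also lost by DESeq2 (adjusted p = 0.12) and with all 12 libraries in the model (adjusted p = 0.060). The ANXA1 difference after subtraction was 1.84.

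A further group rose in the TAL1 line with little change in the LMO1 line. STK17B, a kinase of lymphocyte apoptosis and receptor signalling chosen after its values were seen, was at 61.7 and 56.5 CPM with DMSO and 98.8 and 93.4 CPM with doxycycline in the TAL1 line. STK17B in the LMO1 line was at 64.6 and 64.7 CPM with DMSO and 63.1 and 67.9 CPM with doxycycline. The 6 libraries without induced TAL1 lay between 56.5 and 67.9 CPM, and the difference was 0.68 (SE 0.09, adjusted p = 2.3e-09). IL4R, the interleukin-4 receptor chain, was at 52.8 and 53.5 CPM with DMSO and 84.6 and 90.2 CPM with doxycycline in the TAL1 line. The LMO1 line had IL4R at 17.1 and 16.1 CPM with DMSO and 19.2 and 14.2 CPM with doxycycline. The IL4R responses differed by 0.71 (SE 0.12, adjusted p = 3.3e-05). LCP2, the SLP-76 adaptor, was the called member among 29 genes of the T-cell receptor complex and its signalling, beside 1.22% of all tested genes. It was at 69.03 and 60.97 CPM with DMSO and 92.9 and 91.1 CPM with doxycycline in the TAL1 line. LCP2 in the LMO1 line was at 35.3 and 39.3 CPM with DMSO and 38.2 and 35.5 CPM with doxycycline. For LCP2 the difference was 0.52 (SE 0.10, adjusted p = 1.4e-04).

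CD38, PDE4D, IL16 and RAP1GAP2 had the same pattern and were chosen after their values were seen. CD38, an ectoenzyme of NAD metabolism, had a difference of 0.67 (SE 0.10, adjusted p = 8.3e-07), and PDE4D, a cyclic AMP phosphodiesterase, one of 1.01 (SE 0.16, adjusted p = 1.6e-06). IL16, a cytokine precursor, had 1.30 (SE 0.25, adjusted p = 2.5e-04), and RAP1GAP2, a Rap1 GTPase-activating protein, 1.02 (SE 0.20, adjusted p = 2.8e-04). IL21R, the interleukin-21 receptor, was at 6.97 and 5.83 CPM with DMSO and 18.8 and 19.3 CPM with doxycycline in the TAL1 line, while the LMO1 line had at most 0.770 CPM. The rise in the TAL1 line was clear (1.57, SE 0.13, adjusted p = 8.9e-19), but the difference (1.96, SE 0.50, adjusted p = 0.019) rests on few counts in the LMO1 line. It was lost in 4 fits with 1 library left out, with adjusted p = 0.318, 0.181, 0.0796 and 0.0562 without the LMO1 line's DMSO replicate 1, doxycycline replicate 1 and doxycycline replicate 2 and the TAL1 line's DMSO replicate 2. PI16, a peptidase inhibitor, went from 0.128 and 0 to 7.23 and 8.08 CPM in the TAL1 line. It had 3 counts in all in the DMSO libraries of the LMO1 line and 0 in its doxycycline libraries, so no fold of its response in the LMO1 line can be given. Its difference was called (adjusted p = 6.1e-04) but not without the LMO1 line's DMSO replicate 1 (adjusted p = 0.102).

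Of 19 genes of common gamma chain cytokine signalling, 6 rose in the TAL1 line and 4 in the LMO1 line, and none fell, against 1.24% and 1.45% risen over all tested genes. Without replicate 2 of the TAL1 line with doxycycline, 3 rose in that line. The difference was called for IL4R and IL21R (positive) and for IL7R and IL15RA (negative). IL15RA, the interleukin-15 receptor alpha chain, rose in the LMO1 line from 7.95 and 9.11 to 12.1 and 13.8 CPM. Its difference was -0.75 (SE 0.16, adjusted p = 9.7e-04), with adjusted p = 0.074 without replicate 2 of the LMO1 line with doxycycline. Of 17 listed genes that TAL1 is known to activate in T-ALL cells, 6 rose in the TAL1 line, 2 rose in the LMO1 line and none fell, beside the same 1.24% and 1.45%. In the TAL1 line 2 rises were left when its DMSO replicate 2 was omitted. The difference was called for CD53 and ETS1 (positive) and for ALDH1A2 and CBFA2T3 (negative), and for 1.22% of all tested genes. CD53, a tetraspanin, and ETS1, a lymphoid transcription factor, rest on single libraries. CD53 (1.43, SE 0.35, adjusted p = 0.0097) kept its call in 5 and ETS1 (0.22, SE 0.06, adjusted p = 0.041) in 1 of 8 fits with 1 library left out. Their adjusted p reached 0.253 (without the LMO1 line's doxycycline replicate 1) and 0.302 (without the TAL1 line's DMSO replicate 2). GIMAP2, GIMAP6 and GIMAP7, lymphocyte GTPases, rose in the TAL1 line by 0.41, 2.60 and 1.01, and ARID5B and RUNX1, genes of the TAL1 circuit, by 0.47 and 0.19 on the log2 scale. None of these 5 genes, chosen after their values were seen, was called in the LMO1 line, yet none had a called difference of responses (adjusted p at least 0.68), so no difference between the lines is shown for them.

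PTPRF, a receptor phosphatase, had one of the largest positive values in the table (2.73, SE 0.66, adjusted p = 4.1e-04). It was at 0.192 and 0.127 CPM with DMSO and 1.47 and 0.746 CPM with doxycycline in the TAL1 line. PTPRF in the LMO1 line was at 109 and 114 CPM with DMSO and 113 and 111 CPM with doxycycline. After subtraction of the excess from replicate 1 of the TAL1 line with doxycycline the difference was 1.21 (adjusted p = 0.808), after subtraction from both replicates 0.64 (adjusted p = 0.935), and without replicate 1 it was 2.16 (adjusted p = 0.14). Of the 10 largest positive differences that the naming rule picked, 3 were genes of the Y chromosome, whose levels are not given here.

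Genes called in the LMO1 line alone included the largest negative differences. SERINC5, a membrane protein known as a restriction factor of retroviruses, was at 6.48 and 6.18 CPM with DMSO and 16.7 and 18.03 CPM with doxycycline in the LMO1 line. SERINC5 in the TAL1 line was at 6.46 and 4.63 CPM with DMSO and 4.80 and 4.72 CPM with doxycycline. The 6 libraries without induced LMO1 overlapped and the difference was -1.68 (SE 0.22, adjusted p = 6.0e-09). ALDH1A2, which makes retinoic acid and is described as activated by TAL1 complexes, was at 4.10 and 3.82 CPM with DMSO and 12.8 and 12.8 CPM with doxycycline in the LMO1 line, where TAL1 mRNA was near 0. ALDH1A2 in the TAL1 line was at 1.34 and 1.84 CPM with DMSO and 1.28 and 1.49 CPM with doxycycline. Its difference was -1.89 (SE 0.35, adjusted p = 1.2e-04), and with all 12 libraries in the model the same difference was not called (adjusted p = 0.277). MFAP4, a microfibril protein, was at 8.27 and 10.3 CPM with DMSO and 21.4 and 20.003 CPM with doxycycline in the LMO1 line, a difference of -1.18 (SE 0.13, adjusted p = 2.1e-11). EPHA2, an ephrin receptor, was at 25.1 and 24.97 CPM with DMSO and 51.02 and 41.2 CPM with doxycycline in the LMO1 line, a difference of -1.09 (SE 0.12, adjusted p = 3.5e-12). BEST1, a chloride channel, had a difference of -1.03 (SE 0.21, adjusted p = 8.6e-04), with adjusted p = 0.0751 without the LMO1 line's DMSO replicate 1.

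DOCK5, a guanine nucleotide exchange factor, and EPSTI1, an interferon-inducible protein, are low and less certain, with differences of -1.53 (SE 0.37, adjusted p = 0.0078) and -1.08 (SE 0.28, adjusted p = 0.019). They kept their calls in 4 and 3 of 8 fits with 1 library left out. Their adjusted p reached 0.226 (without the LMO1 line's doxycycline replicate 1) and 0.241 (without the TAL1 line's DMSO replicate 1). CBFA2T3, the ETO2 corepressor found in TAL1 complexes, was at 198 and 213 CPM with DMSO and 262 and 269.9 CPM with doxycycline in the LMO1 line. CBFA2T3 in the TAL1 line was at 181 and 181 CPM with DMSO and 187 and 183 CPM with doxycycline. For CBFA2T3 the difference was -0.34 (SE 0.07, adjusted p = 3.6e-04). ZEB1, an E-box-binding repressor chosen after its values were seen, rose in the LMO1 line by 0.35 on the log2 scale and had a difference of -0.38 (SE 0.07, adjusted p = 2.6e-04).

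FBXW7, the ubiquitin ligase subunit that targets NOTCH1 and MYC, was called in the LMO1 line alone, where it fell, at 144 and 137 CPM with DMSO and 105 and 109.98 CPM with doxycycline in the LMO1 line. FBXW7 in the TAL1 line was at 76.6 and 73.3 CPM with DMSO and 77.9 and 74.5 CPM with doxycycline. For FBXW7 the difference was 0.41 (SE 0.08, adjusted p = 2.3e-04). CAMK4, a calcium-dependent kinase of thymocytes, PRKCA, protein kinase C alpha, and ADAM10, the protease that sheds NOTCH receptors, had differences of 0.50, 0.31 and 0.48 (adjusted p = 2.0e-07, 3.5e-04 and 5.2e-08). These 4 genes were chosen after their values were seen. RGS6, a regulator of G-protein signalling, fell in the LMO1 line from 3.40 and 3.12 to 1.03 and 1.21 CPM and was at 4.80 to 5.76 CPM in the TAL1 line. Its difference was 1.41 (SE 0.33, adjusted p = 0.0055), with adjusted p = 0.122 without the LMO1 line's doxycycline replicate 1.

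TOX2, an HMG-box transcription factor of T cells, was the gene with a called difference that rose in both lines, from 26.8 and 24.5 to 47.3 and 48.5 CPM with TAL1 and less so with LMO1, from 25.3 and 25.9 to 29.96 and 32.1 CPM. The lines had the same DMSO level, and the rise was larger with TAL1 by 0.63 (SE 0.11, adjusted p = 7.5e-05). TOX, its relative, rose in the TAL1 line, and its difference (0.39, SE 0.09, adjusted p = 0.0071) kept the call in 4 of 8 fits with 1 library left out, with adjusted p of up to 0.265 (without the LMO1 line's DMSO replicate 2). KLF2, a transcription factor of T-cell quiescence, had a difference of 0.67 (SE 0.13, adjusted p = 3.6e-04). Without the LMO1 line's doxycycline replicate 1 the KLF2 difference was 0.55 and not called. KLF2 was the called member of 18 immediate early and activation genes, beside 1.22% of all tested genes.

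For growth-related lists few differences were called. Of 29 MYC target and ribosome biogenesis genes, 9 fell in the TAL1 line and 5 in the LMO1 line, with medians of -0.15 and -0.11, against 1.14% and 1.26% fallen over all tested genes, and none was called in the difference (MYC itself: -0.18, adjusted p = 0.16). Those counts shrink with 1 library left out, to 2 or 3 falls in the TAL1 line without its doxycycline replicate 2 or either DMSO replicate, and in the LMO1 line to 1 without its doxycycline replicate 2 and 3 without its DMSO replicate 2. Of 25 glycolysis and hypoxia genes, 5 fell in the TAL1 line and 11 in the LMO1 line, and 1, the glucose transporter gene SLC2A3, rose in the TAL1 line (adjusted p = 0.0408). By DESeq2, and with no filter on low counts, none of these genes rose in the TAL1 line. Their falls in the TAL1 line numbered 0 without its DMSO replicate 1, 1 without its doxycycline replicate 1 and 2 without either other library. LDHA and ENO1, the lactate dehydrogenase and enolase genes, fell in both lines, by 0.18 and 0.17 on the log2 scale with TAL1 and by 0.40 and 0.32 with LMO1, and their differences were not called (adjusted p = 0.098 and 0.45). Both were called without DMSO replicate 1 of the LMO1 line, and LDHA also without doxycycline replicate 2 of the TAL1 line. PKM, pyruvate kinase, fell in the LMO1 line by 0.31 and was called in the difference (0.30, SE 0.06, adjusted p = 7.8e-04), with adjusted p = 0.0698 without the LMO1 line's DMSO replicate 2. No member of the mitosis, DNA replication, cholesterol synthesis or interferon lists (25, 30, 23 and 20 tested genes) was called in the difference.

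In the TAL1/LMO1 line, where both factors were induced, all 21 opposite genes were called, in a comparison that called 60.2% of tested genes (28.5% rose and 31.7% fell) and was added after the data were seen. They did not follow 1 factor: 13 moved in the direction of the TAL1 line and 8 in that of the LMO1 line, and both sets held genes of either pattern. ARPP21 was at 3.59 and 5.02 CPM with DMSO and 0.621 and 0.246 CPM with doxycycline in that line, a log2 change of -3.29. The direction was that seen with TAL1, but the fall was far larger and started from a far lower level. NOTCH3 fell there, with 359.7 and 385 CPM with DMSO and 107 and 108 CPM with doxycycline. SLC29A1 fell too, with 600.2 and 584 CPM with DMSO and 122 and 121 CPM with doxycycline. IGLL1, in contrast, was at 97.7 and 105 CPM with DMSO and 574 and 546 CPM with doxycycline, a rise of 2.47 on the log2 scale in the direction seen with LMO1. TRGC2 was at 498 and 474 CPM with DMSO and 959 and 984 CPM with doxycycline, in the TAL1 direction. JARID2, at 190.2 and 187 CPM with DMSO and 448 and 435 CPM with doxycycline, moved likewise. TLR5, with 44.6 and 45.6 CPM with DMSO and 10.7 and 11.7 CPM with doxycycline, moved in the LMO1 direction, as did ANXA1, with 1.41 and 1.87 CPM with DMSO and 0 counts in both doxycycline libraries. CD1A, which rose with LMO1 alone, was at 261 and 260.5 CPM with DMSO and 131 and 139 CPM with doxycycline, and DNTT was at 375 and 366 CPM with DMSO and 31.4 and 28.6 CPM with doxycycline. The induced TAL1 and LMO1 mRNAs were also far higher in this line, at 932 and 868 CPM and at 1501 and 1576 CPM, so the dose of each factor differs from the single lines.

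**Figure D4:**
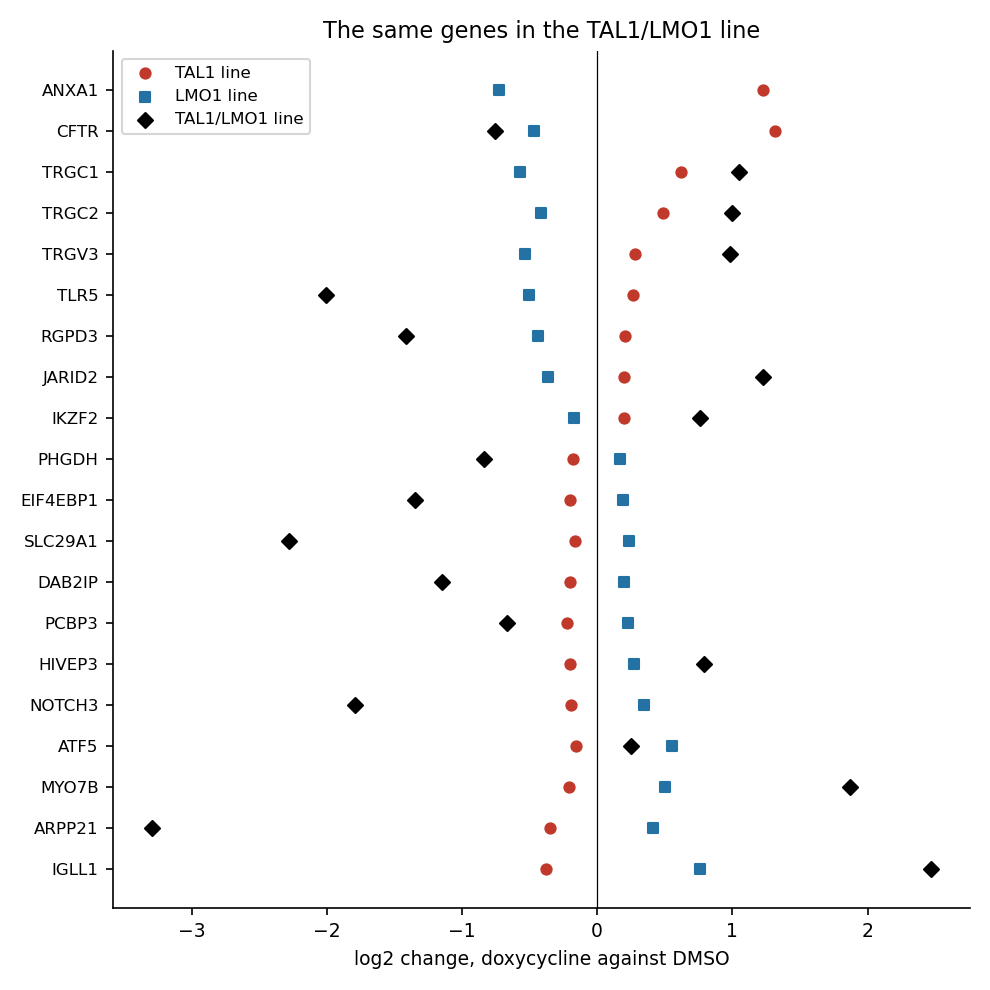
Log2 change with doxycycline against DMSO of 20 of the 21 opposite genes in the TAL1 line (red circles), the LMO1 line (blue squares) and the TAL1/LMO1 line (black diamonds, from the model of 12 libraries), 2 libraries per group. ANXA1 has no diamond because its doxycycline libraries there had 0 counts; the other diamonds lie on the side of the TAL1 line for 12 genes and of the LMO1 line for 7.

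In the authors' deposited table for each line, all 21 genes had log2 fold changes of opposite sign. Those tables rest on the same libraries, so the signs are not independent support. The authors' deposited tables gave an adjusted p under 0.05 to 5 of them in both lines, to 7 in the TAL1 line and to 10 in the LMO1 line. In the authors' deposited table for the LMO1 line 7 of the 21 have no adjusted p, so 14 could pass in both.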

How the data were processed

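RNA of 12 HPB-ALL libraries was sequenced (strand-specific, paired-end, per the labels' protocols), and the 8 of the single-factor lines entered the main model. Alignment to hg19 is recorded with STAR 2.5.2a in the submitters' processing notes, which also list featureCounts and DESeq2 1.12.4. The sources used here do not give the strand setting of the counting. The authors deposited raw counts per gene without normalization. The authors also deposited a DESeq2 table per line, whose columns, per the file headers, hold a mean normalised signal, a log2 fold change with its SE, a Wald score, a p-value and an adjusted p-value.

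From the counts, genes were kept by filterByExpr, scaled by TMM and fitted in edgeR 4.0.16 (R 4.3.3; robust quasi-likelihood, 1 mean per group, two-sided F tests, no replicate block). The model had 4 residual degrees of freedom and a median of 111 prior ones, so p-values rest largely on the spread of other genes (common biological coefficient of variation 3.18%). Genes were called at an adjusted p under 0.05 over all tested genes. SE is the size of the change over the square root of F, or its counting error where larger. A gene with 0 counts in a library may hold up to 3 (95% limit), at most 0.193 CPM, from counting error only.

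The naming rule took both transgenes, the 10 largest differences per direction among called genes of at least 2 CPM without overlap in at least 1 line, up to 8 opposite genes per pattern, and up to 4 members by p from each list with a called member. The opposite genes include 1 whose result is not reported here. Beyond the rule, IKZF2, ANXA1, ATF5, EIF4EBP1 and PHGDH are further opposite genes, and genes said to be chosen after their values were seen were added. Pseudogenes, antisense transcripts and clone names were not named, by gene types from GENCODE 29 and RefSeq. The members and the 21 gene lists were chosen with earlier results of these data known. The procedure was tested on simulated data. Promoters came from RefSeq. Alternatives were other scalings and filters, DESeq2 1.42.0, a replicate block, all 12 libraries in 1 model, subtraction of the excess in TAL1 doxycycline libraries, and each library left out; the closing section gives their effect.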

Additional observations from a re-analysis of the deposited data

Results flagged for a closer look

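The doxycycline response differed between the TAL1 line and the LMO1 line for 187 genes, by the test of the difference itself in edgeR's quasi-likelihood model (adjusted p under 0.05). Among them are the 21 genes called in both lines in opposite directions. For 20 of these the log2 response in the TAL1 line minus that in the LMO1 line is given here. It was positive for ANXA1 (1.95), CFTR (1.79), TRGC1 (1.19), TRGC2 (0.90), TRGV3 (0.81), TLR5 (0.77), RGPD3 (0.65), JARID2 (0.56) and IKZF2 (0.37). It was negative for IGLL1 (-1.13), ARPP21 (-0.76), MYO7B (-0.71), ATF5 (-0.71), NOTCH3 (-0.54), HIVEP3 (-0.47), PCBP3 (-0.45), DAB2IP (-0.40), SLC29A1 (-0.40), EIF4EBP1 (-0.39) and PHGDH (-0.35). For CFTR it was 1.247 after the excess of LMO1-line genes was subtracted from replicate 1 of the TAL1 line with doxycycline, and 1.121 after subtraction from both replicates. The lines already differed at 39.7% of tested genes with DMSO, and the part of that difference in these responses was not tested.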

How the results depend on the processing

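DESeq2 called 104 differences (103 of them among the 187), 141 genes in the TAL1 line, 188 in the LMO1 line, 10 opposite and 14 in the same direction. It did not call the differences of ATF3, BEST1, CD1E, CD53, DOCK5, EPSTI1, IKZF2, IL15RA, IL21R, PTCRA, RGS6 and TOX (adjusted p from 0.0511 to 0.435). With DESeq2's size factors in edgeR, total counts, no filter, a filter at 1 CPM, all 12 libraries in 1 model, or the LMO1 share subtracted from replicate 1 or from both replicates of the TAL1 line with doxycycline, 153 to 186 differences and 16 to 22 opposite genes were called. With 1 library left out, 120 to 203 differences, 124 to 502 genes in the TAL1 line, 175 to 459 in the LMO1 line, 7 to 27 opposite genes, 9 to 61 genes in the same direction and 4767 to 6235 genes between the DMSO libraries were called; the cause was not tested beyond the smaller number of libraries. Of 79 named genes with a called difference, 54 kept it in all 8 of those fits and 59 in every other setting, and none reversed its sign. With the replicate number as a block, 206 differences (186 of them among the 187) and 25 opposite genes were called. The labels number the replicates, but the correlations of deviations between same-numbered libraries ran from -0.13 to 0.20 over 6 pairs of groups, so the numbers are not shown to pair the samples. Counts near 0 limit the tests of TAL1, LMO1, PI16, IL21R and GIMAP6 in the line where each is scarce.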
